A study of Homo sapiens with 15 samples.

Results

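ZBTB16, SNAI2, KLF5 and MAF are 4 transcription factor genes whose transcripts were among the largest falls when C42B prostate cancer cells were given enzalutamide. They were chosen for that difference between enzalutamide and vehicle, and are 4 of the 17687 genes measured. Each had 1 probe set, with a platform gene symbol equal to its name. The series holds 15 Affymetrix arrays of C42B, an established castration-resistant line of the LNCaP lineage, lysed after 6 h of treatment. The groups were 0.125% DMSO vehicle (3 arrays), 10 µM enzalutamide (2 arrays), 15 µM PF-543 (3 arrays), 15 µM ABC294640 (1 array), 10 µM enzalutamide with 15 µM PF-543 (3 arrays) and 10 µM enzalutamide with 15 µM ABC294640 (3 arrays). All cells grew in medium with 10% fetal bovine serum, with no hormone-stripped serum named in the labels, and a DMSO percentage is given for the vehicle group only. No label tells if replicates came from separate cultures; p-values then measure only the spread between these arrays, which may be technical.

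The androgen receptor is a hormone-activated transcription factor that binds DNA next to its target genes and drives the luminal programme of prostate cells. Enzalutamide blocks hormone binding to the receptor, its move into the nucleus and its binding to DNA. PF-543 inhibits sphingosine kinase 1 and ABC294640 (opaganib) inhibits sphingosine kinase 2, the enzymes that make the lipid messenger sphingosine 1-phosphate. ZBTB16, also called PLZF, is a BTB domain zinc finger repressor known to be induced by androgen and by glucocorticoid. SNAI2, also called SLUG, is a zinc finger repressor that binds E-boxes, silences E-cadherin and takes part in epithelial-mesenchymal transition. KLF5 is a Krüppel-like zinc finger factor of proliferating epithelia that binds CACCC and GC-rich boxes. MAF is a large MAF protein of the basic leucine zipper class that binds MAF recognition elements, and is known for its part in lens development, T cells and myeloma.

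Promoter sequence is shown for KLF5 and MAF (2 of 4 genes), from the RefSeq promoter table used here. ZBTB16 had no entry in it, and the sequence of SNAI2 is not reported here. Each line gives the 250 bases before an annotated transcript start, 5′ to 3′ on the gene's strand, build GRCh38.p14. KLF5 has 2 annotated starts, at chr13:73054726-73054975 (plus strand, 40.8% G or C) and chr13:73058755-73059004 (plus strand, 70.8% G or C), and MAF has 1, at chr16:79600738-79600987 (minus strand, 54.4% G or C). Capitals mark AGAACA, the half-site of an androgen response element, and TGCTGA, the half-site of a MAF recognition element, on either strand.
KLF5 upstream start: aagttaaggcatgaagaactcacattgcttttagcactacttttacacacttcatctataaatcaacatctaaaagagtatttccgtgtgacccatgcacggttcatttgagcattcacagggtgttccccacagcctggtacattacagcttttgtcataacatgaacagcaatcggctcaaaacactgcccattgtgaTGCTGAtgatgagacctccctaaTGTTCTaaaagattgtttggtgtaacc
KLF5 downstream start: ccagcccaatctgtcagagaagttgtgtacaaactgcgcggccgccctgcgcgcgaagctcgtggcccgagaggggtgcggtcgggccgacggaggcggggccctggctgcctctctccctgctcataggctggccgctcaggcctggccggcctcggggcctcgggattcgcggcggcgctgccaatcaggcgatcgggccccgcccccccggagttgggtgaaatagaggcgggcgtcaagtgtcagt
MAF start: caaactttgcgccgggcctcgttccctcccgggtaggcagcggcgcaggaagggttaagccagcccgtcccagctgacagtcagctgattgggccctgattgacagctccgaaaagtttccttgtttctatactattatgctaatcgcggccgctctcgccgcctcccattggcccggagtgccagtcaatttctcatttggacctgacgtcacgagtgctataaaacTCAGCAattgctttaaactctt
The upstream KLF5 window held AGAACA on the opposite strand, printed as its reverse complement, 27 to 22 bases before the start. The same window held TGCTGA 50 to 45, TATAAA 194 to 189 and, on the opposite strand, CACCC 130 to 126 bases before the start. The MAF window held TGCTGA on the opposite strand 22 to 17 bases before the start, beside a TATAAA 30 to 25 bases before it. The downstream KLF5 window held neither half-site and contained CACCC on the opposite strand at 177 to 173 and 32 to 28 bases before the start. Over all 35116 promoter windows of this length, both strands searched, 12.4% held AGAACA, 14% held TGCTGA, 10.7% held TATAAA and 54.7% held CACCC. The E-box CACCTG, held by 17.5%, and the full androgen response element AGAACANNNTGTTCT, held by 1 window in all (0.00285%), were in none of the 3 windows. Such matches are short letters in a short window and do not show binding.

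Before the members' values, 2 features of the arrays bear on them. The 3 DMSO arrays stood apart from the 12 treated arrays on the first principal component (15.3% of the variance), at 18.9 to 24.8 against -11.6 to 0.03. The tests used comparisons whose difference contains no DMSO array and no array of enzalutamide alone, because these groups chose the members. The spread behind the p-values was still pooled over all 15 arrays, these groups included. Luminal prostate markers were bright on every array, with KLK3 at log2 15.64 to 16.23, KRT8 at 14.10 to 14.28 and HOXB13 at 12.50 to 13.38. The basal keratins KRT5 (3.65 to 4.52) and KRT14 (4.18 to 4.78) and the neuroendocrine marker CHGA (3.39 to 4.13) lay low in the range of their arrays, while the neuroendocrine markers SYP and INSM1 were at 5.21 to 5.95 and 4.84 to 5.54. Of the stromal markers, COL1A2 was at 8.65 to 9.62 and COL1A1, DCN and ACTA2 between 5.03 and 6.96. The leukocyte markers PTPRC (5.03 to 6.04), CD14 (5.38 to 6.12) and CD3E (6.23 to 7.10) mark cells that a cultured prostate line should lack. The part of any of these in the results was not tested.

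All 4 members were lower on each of the 8 arrays with enzalutamide than on any of the 7 arrays without it, whichever inhibitor was present. In bulk RNA a smaller share of cells with the transcript and less transcript per cell cannot be told apart. Over all genes 0.475% had no overlap in this direction, but the enzalutamide and DMSO arrays that chose the members are among these 15, so the share supports nothing about them. The gap between the lowest array without the drug and the highest with it was log2 1.62 for ZBTB16, 1.17 for KLF5, 0.56 for SNAI2 and 0.47 for MAF.

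**Figure D1:**
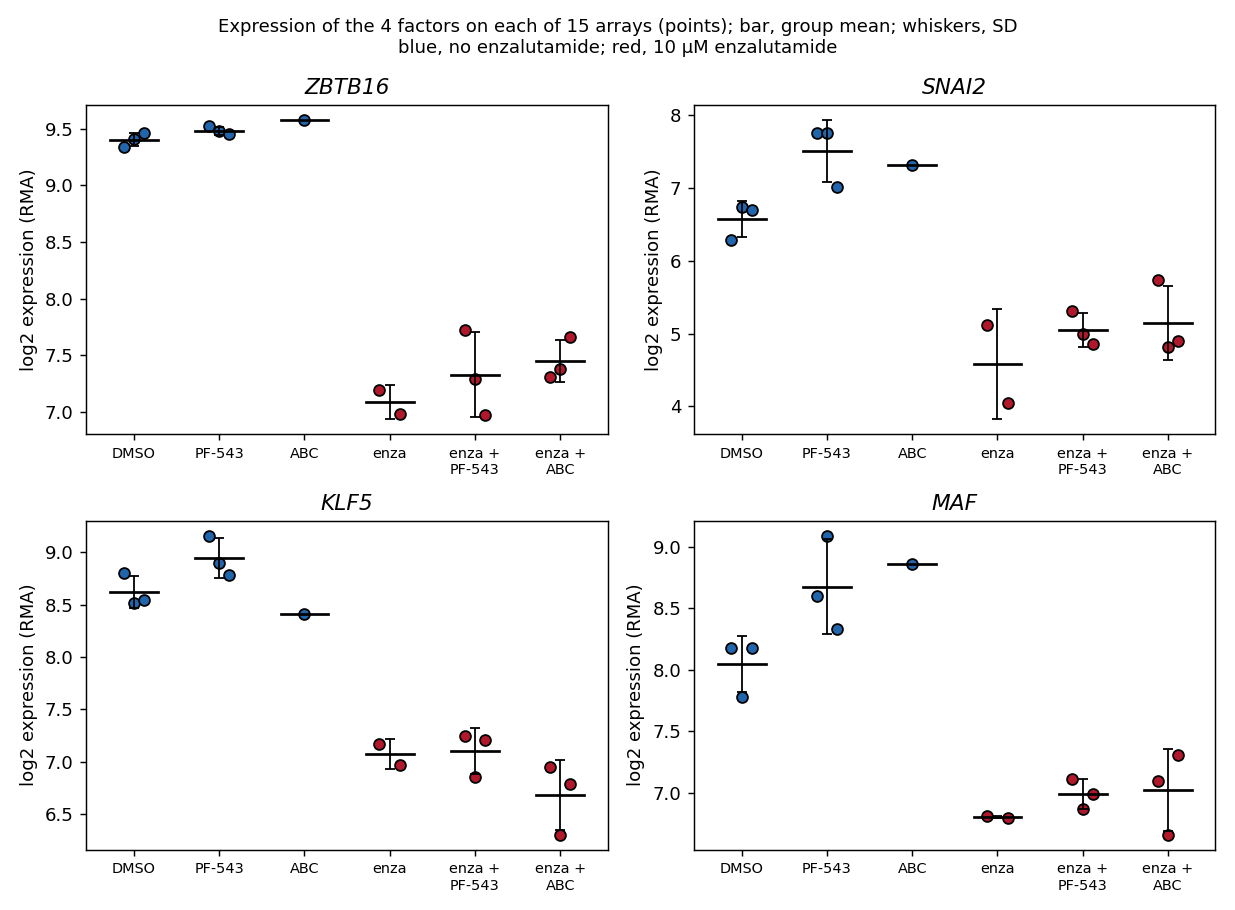
Log2 expression (vertical axis, RMA) of each factor on the 15 arrays (points) in 6 groups (horizontal axis), with the group mean (bar) and SD (whiskers; none for the 1 ABC294640 array); ABC is ABC294640 and enza is enzalutamide. Red points (8 arrays with enzalutamide) lie below blue points (7 arrays without it) in every panel.

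ZBTB16, the repressor induced by androgen and glucocorticoid, was the member with the tightest levels in cells without enzalutamide. Its log2 level was 9.34, 9.41 and 9.46 with DMSO, 9.52, 9.48 and 9.45 with PF-543, and 9.58 on the ABC294640 array. With enzalutamide it was 7.19 and 6.98 alone, 7.72, 7.29 and 6.97 with PF-543, and 7.31, 7.38 and 7.66 with ABC294640. The 3 groups without enzalutamide spanned 0.24 log2 units in all, and the 8 arrays with it spanned 0.75. Group means ran from ABC294640 (9.58) through PF-543 (9.48 ± 0.04, SD, n = 3) and DMSO (9.40 ± 0.06, SD, n = 3) to enzalutamide with ABC294640 (7.45 ± 0.19, SD, n = 3), enzalutamide with PF-543 (7.33 ± 0.38, SD, n = 3) and enzalutamide alone (7.09 ± 0.15, SD, n = 2). Neighbours in that order overlapped in their arrays for PF-543 and DMSO and among the groups with enzalutamide.

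SNAI2, the E-box repressor, was the most variable member. Its log2 level was 6.29, 6.74 and 6.69 with DMSO, 7.76, 7.75 and 7.01 with PF-543, and 7.31 on the ABC294640 array. With enzalutamide it was 5.12 and 4.05 alone, 5.31, 4.99 and 4.86 with PF-543, and 5.73, 4.81 and 4.90 with ABC294640. On the 8 arrays with the drug it stood at the 13.4 to 39.6 percentile of genes on its array, and on the 7 others at the 44.2 to 54.6 percentile. No detection call was used, and these levels with enzalutamide (4.05 to 5.73) lay within or below the range of the leukocyte markers, so they were not shown to be above background. With enzalutamide KLF5 (6.30 to 7.24) and MAF (6.66 to 7.31) lay largely within the range of the leukocyte marker CD3E (6.23 to 7.10). The ZBTB16 levels of 6.97 (replicate 3 of enzalutamide with PF-543) and 6.98 (enzalutamide replicate 2) did too. Such levels were not shown to be above background either. The folds given for the 4 members are the fitted values, and how far background limits them was not tested. The 2 arrays of enzalutamide alone differed by 1.07 log2 units, more than the 3 DMSO arrays (0.45) or the 3 arrays of enzalutamide with PF-543 (0.45). All 4 arrays with an inhibitor and no enzalutamide lay above the 3 DMSO arrays, as for 7.18% of all genes; the DMSO arrays chose the members, so nothing is read from this. The 3 groups with enzalutamide overlapped. Group means ran from PF-543 (7.51 ± 0.43, SD, n = 3) through ABC294640 (7.31) and DMSO (6.57 ± 0.25, SD, n = 3) to enzalutamide with ABC294640 (5.15 ± 0.51, SD, n = 3), with PF-543 (5.05 ± 0.23, SD, n = 3) and alone (4.59 ± 0.76, SD, n = 2).

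KLF5, the factor of proliferating epithelia, had log2 levels of 8.80, 8.52 and 8.54 with DMSO, 9.16, 8.90 and 8.78 with PF-543, and 8.41 on the ABC294640 array. With enzalutamide it was 7.17 and 6.97 alone, 7.24, 6.85 and 7.21 with PF-543, and 6.95, 6.30 and 6.79 with ABC294640. It was the only member whose lowest group mean was enzalutamide with ABC294640 (6.68 ± 0.34, SD, n = 3) instead of enzalutamide alone (7.07 ± 0.14, SD, n = 2). Above them the means ran from PF-543 (8.95 ± 0.19, SD, n = 3) through DMSO (8.62 ± 0.16, SD, n = 3) to ABC294640 (8.41) and then enzalutamide with PF-543 (7.10 ± 0.22, SD, n = 3). The arrays of PF-543 and DMSO overlapped, as did those of enzalutamide alone and with PF-543.

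MAF, the leucine zipper factor, had log2 levels of 8.18, 7.78 and 8.18 with DMSO, 8.60, 9.09 and 8.33 with PF-543, and 8.86 on the ABC294640 array. With enzalutamide it was 6.81 and 6.80 alone, 7.11, 6.87 and 6.99 with PF-543, and 7.10, 6.66 and 7.31 with ABC294640. As for SNAI2, and for 7.18% of all genes, the 4 arrays with an inhibitor alone lay above the 3 DMSO arrays. The lowest array without the drug was DMSO replicate 2, and the highest with it was replicate 3 of enzalutamide with ABC294640. Group means ran from ABC294640 (8.86) through PF-543 (8.67 ± 0.39, SD, n = 3) and DMSO (8.05 ± 0.23, SD, n = 3) to enzalutamide with ABC294640 (7.02 ± 0.33, SD, n = 3), with PF-543 (6.99 ± 0.12, SD, n = 3) and alone (6.81 ± 0.01, SD, n = 2). The ABC294640 array lay within the range of PF-543, and the arrays of the combinations overlapped.

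Against DMSO, the comparison that chose the members, enzalutamide left ZBTB16 at 20.0% of its level (log2 -2.32, SE 0.18), SNAI2 at 25.2% (-1.99, SE 0.34), KLF5 at 34.2% (-1.55, SE 0.19) and MAF at 42.3% (-1.24, SE 0.22), given as a description. Counted from the most negative difference of all genes, they ranked 2, 3, 6 and 9. SNAI2 was at log2 -2.52 without enzalutamide replicate 1 and at -1.45 without enzalutamide replicate 2.

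Enzalutamide added to PF-543 lowered all 4 members. The difference uses none of the arrays of enzalutamide against DMSO, although the pooled spread does. The members were also picked with the results of this comparison known. ZBTB16 fell 4.46-fold, to 22.4% of its level with PF-543 (log2 -2.16, SE 0.16, 95% interval -2.50 to -1.82, limma adjusted p = 2.2e-05). SNAI2 fell 5.48-fold by the fitted values, to 18.3% (log2 -2.45, SE 0.30, 95% interval -3.11 to -1.80, limma adjusted p = 0.00264), with levels under enzalutamide not shown to be above background. KLF5 fell 3.60-fold, to 27.8% (log2 -1.85, SE 0.17, 95% interval -2.22 to -1.48, limma adjusted p = 0.000182). MAF fell 3.21-fold, to 31.1% (log2 -1.68, SE 0.20, 95% interval -2.11 to -1.26, limma adjusted p = 0.00161). For KLF5 and MAF too, levels under enzalutamide were not shown to be above background, nor was the ZBTB16 level of 6.97 on replicate 3 of the combination. Of all genes 0.232% passed in this direction, against 4 of 4 members. The 3 arrays with and the 3 without enzalutamide did not overlap for any member, as for 6.99% of all genes. When the spread too was taken only from the 10 arrays without DMSO or enzalutamide alone, adjusted p was 0.00123 for ZBTB16, 0.00727 for SNAI2, 0.00305 for KLF5 and 0.0141 for MAF.

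Added to ABC294640, enzalutamide lowered 3 of the 4 members, against a background of 0.0735% of genes lower, and this comparison rests on 1 array without enzalutamide, assumed to vary like the others. ZBTB16 was 4.38-fold lower (log2 -2.13, SE 0.22, limma adjusted p = 0.00119), KLF5 3.32-fold (log2 -1.73, SE 0.24, adjusted p = 0.0175) and MAF 3.57-fold (log2 -1.84, SE 0.28, adjusted p = 0.0327). SNAI2 was at log2 -2.16 (SE 0.43, 95% interval -3.09 to -1.23) and did not pass over all genes (limma adjusted p = 0.158, unadjusted p = 0.000241). The ABC294640 array lay above the 3 arrays of the combination for every member, as for 24.2% of all genes. Fitted on its own 4 arrays alone, the comparison called 0 members (limma adjusted p = 0.278 for ZBTB16, 0.632 for KLF5 and 0.551 for MAF). Fitted on the 10 arrays alone, ZBTB16 passed (adjusted p = 0.0206), while KLF5 (adjusted p = 0.0977) and MAF (adjusted p = 0.113) did not. MAF also lost the call, at adjusted p between 0.0543 and 0.0924, without any 1 of DMSO replicate 1, enzalutamide replicate 1 or 2, PF-543 replicate 1, replicate 1 of enzalutamide with PF-543, or replicate 1 or 2 of enzalutamide with ABC294640.

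Averaged over the backgrounds of PF-543 and ABC294640, the enzalutamide effect passed for 4 of 4 members, where 0.288% of all genes were called lower. By the fitted values SNAI2 was left at 20.2% of its level, with the same limit from background (log2 -2.31, SE 0.26, limma adjusted p = 0.000997), ZBTB16 at 22.6% (log2 -2.14, SE 0.14, adjusted p = 4.14e-06), KLF5 at 29.0% (log2 -1.79, SE 0.15, adjusted p = 4.98e-05) and MAF at 29.5% (log2 -1.76, SE 0.17, adjusted p = 0.000192). The limit from background given for SNAI2 applies to KLF5 and MAF too, and to the ZBTB16 level of 6.97 on replicate 3 of enzalutamide with PF-543. This mean weights the 1 ABC294640 array as much as the 3 PF-543 arrays. MAF thus stood at log2 -1.76 on top of an inhibitor and at -1.24 against DMSO, and ZBTB16 at -2.14 and -2.32; these differences were not tested, since the second value of each chose the gene.

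**Figure D2:**
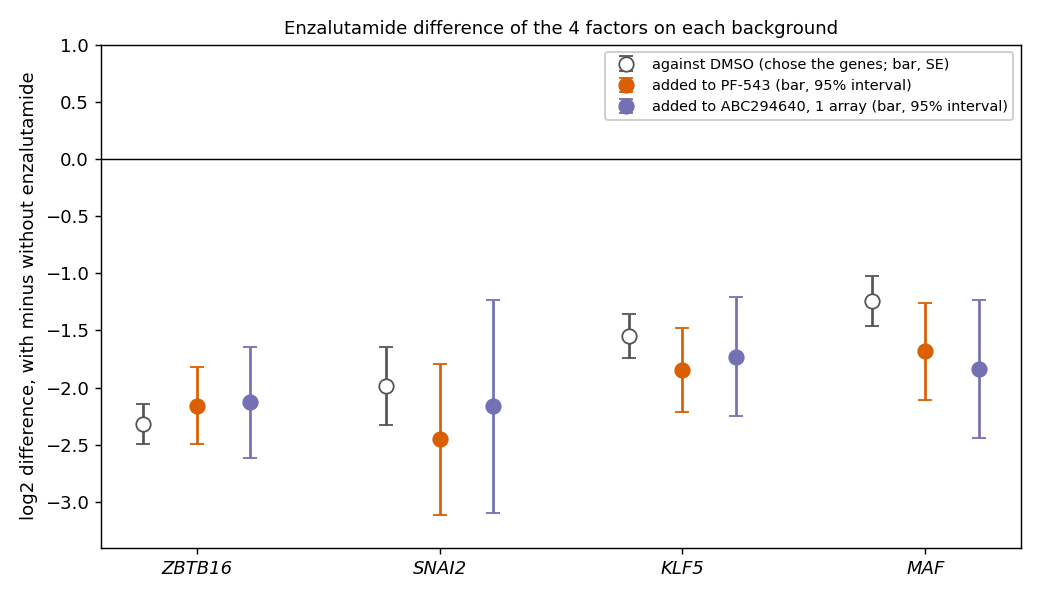
Log2 difference with minus without enzalutamide (vertical axis) for each factor (horizontal axis) against DMSO (open circles, bar SE, the comparison that chose the genes), on top of PF-543 (orange, bar 95% interval) and on top of the 1 ABC294640 array (purple, bar 95% interval). The tested differences run from -2.45 for SNAI2 to -1.68 for MAF, and no 95% interval reaches 0. The intervals are not adjusted for the number of genes, and SNAI2 on top of ABC294640 did not pass over all genes.

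The enzalutamide effect on top of PF-543 was then set against that on top of ABC294640. The effects differed by log2 -0.03 for ZBTB16 (95% interval -0.62 to 0.56), -0.29 for SNAI2 (-1.43 to 0.85), -0.12 for KLF5 (-0.76 to 0.52) and 0.15 for MAF (-0.58 to 0.89). No member passed (limma adjusted p from 0.987 to 0.998), and 0% of all genes did (0 genes by limma, 1115 with an unadjusted p under 0.05, and 1 with a robust and trended prior). The intervals leave room for a difference of up to log2 0.62 in ZBTB16 and 1.43 in SNAI2.

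The inhibitors were compared with each other at 15 µM and 6 h, with and without enzalutamide. None of the 4 members passed in either comparison, where 0.0961% of genes passed with enzalutamide and 0.017% without. With enzalutamide present, PF-543 minus ABC294640 was log2 -0.12 for ZBTB16 (95% interval -0.46 to 0.22), -0.09 for SNAI2 (-0.75 to 0.56) and -0.03 for MAF (-0.46 to 0.39). KLF5 did not pass over all genes in either setting. It was at log2 0.42 with enzalutamide (95% interval 0.05 to 0.79, limma unadjusted p = 0.0289, adjusted p = 0.65), from 0.23 to 0.555 with 1 array left out and lowest without replicate 2 of enzalutamide with ABC294640, and at 0.54 without it (0.01 to 1.06, limma unadjusted p = 0.0449, adjusted p = 0.86). Without enzalutamide the other members were at -0.10 (ZBTB16, -0.58 to 0.38), 0.20 (SNAI2, -0.73 to 1.13) and -0.19 (MAF, -0.79 to 0.42), with 1 ABC294640 array.

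The inhibitors alone against DMSO are described without a test, because the DMSO arrays chose the members and stand apart from all treated arrays. SNAI2 was at 191% of its DMSO level with PF-543 (log2 0.93, SE 0.30) and at 167% with ABC294640 (0.74, SE 0.43). MAF was at 154% with PF-543 (0.63, SE 0.20) and at 176% with ABC294640 (0.81, SE 0.28). ZBTB16 was at 106% and 113% (0.08, SE 0.16, and 0.18, SE 0.22), and KLF5 at 125% and 86.5% (0.33, SE 0.17, and -0.21, SE 0.24). For ZBTB16 and KLF5 the PF-543 and DMSO arrays overlapped. Whether the SNAI2 and MAF levels belong to the inhibitors or to the DMSO arrays was not tested.

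The combinations against enzalutamide alone are likewise described. With PF-543 added, ZBTB16 was at log2 0.24 (SE 0.18), SNAI2 at 0.47 (SE 0.34), KLF5 at 0.03 (SE 0.19) and MAF at 0.19 (SE 0.22). With ABC294640 added, ZBTB16 was at 0.37 (SE 0.18), SNAI2 at 0.56 (SE 0.34), KLF5 at -0.39 (SE 0.19) and MAF at 0.22 (SE 0.22). The SNAI2 values rested on the lower enzalutamide array: without enzalutamide replicate 2 they were -0.07 with PF-543 and 0.03 with ABC294640. Relative to DMSO, the combination with PF-543 left ZBTB16 at 23.7%, SNAI2 and KLF5 at 34.9% each and MAF at 48.1%, and that with ABC294640 left them at 25.8%, 37.2% (SNAI2), 26.1% (KLF5) and 49.2% (MAF).

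Close relatives of the members were read from lists of their families, in the mean enzalutamide effect on top of an inhibitor. In this comparison 0.288% of all genes were called lower and 0.0961% higher, with a median over all genes of log2 0.01. Of 43 measured BTB zinc finger factors 1 fell, 0 rose and 42 did not pass (median log2 0.01). The 1 was ZBTB10, an androgen-induced member of the family (log2 -0.997, SE 0.12, limma adjusted p = 0.00123). BCL6, the germinal centre repressor, was at log2 0.18 (adjusted p = 0.589) and ZBTB7A at -0.12 (adjusted p = 0.828).

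Of 24 measured KLF and SP factors 1 fell, 0 rose and 23 did not pass (median log2 -0.01). KLF7 fell 1.93-fold (log2 -0.95, SE 0.09, limma adjusted p = 0.000104). KLF6 was at log2 -0.51 (adjusted p = 0.247), KLF4 at -0.58 (adjusted p = 0.38) and KLF9, a glucocorticoid-induced member, at -0.17 (adjusted p = 0.866).

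Of the 16 SNAIL, ZEB, TWIST and opposing epithelial factors none passed (median log2 0.0008, from -0.31 to 0.40). The relative SNAI1 had a difference of log2 0.40 (SE 0.13, limma adjusted p = 0.321), with SNAI3 at -0.30 (SE 0.15, adjusted p = 0.659). Of 18 measured epithelial and mesenchymal marker genes none passed (median log2 0.04, from -0.28 to 0.34). CDH1, the E-cadherin gene that SNAI2 is known to silence, had a difference of log2 0.23 (SE 0.14, limma adjusted p = 0.764). It was picked out after its value was seen. The means of these 3 genes joined unlike values on top of PF-543 and on top of the 1 ABC294640 array. These were log2 0.11 and 0.69 for SNAI1, 0.17 and -0.78 for SNAI3, and 0.09 and 0.37 for CDH1. Of 10 measured MAF and CNC-BACH factors none passed (median log2 0.07), with MAFF at -0.01 (SE 0.16, adjusted p = 0.997) and MAFG at 0.13 (SE 0.15, adjusted p = 0.921). None of 9 AP-1 factors, the basic leucine zipper proteins that share DNA sites with MAF, passed either (median log2 -0.04).

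**Figure D3:**
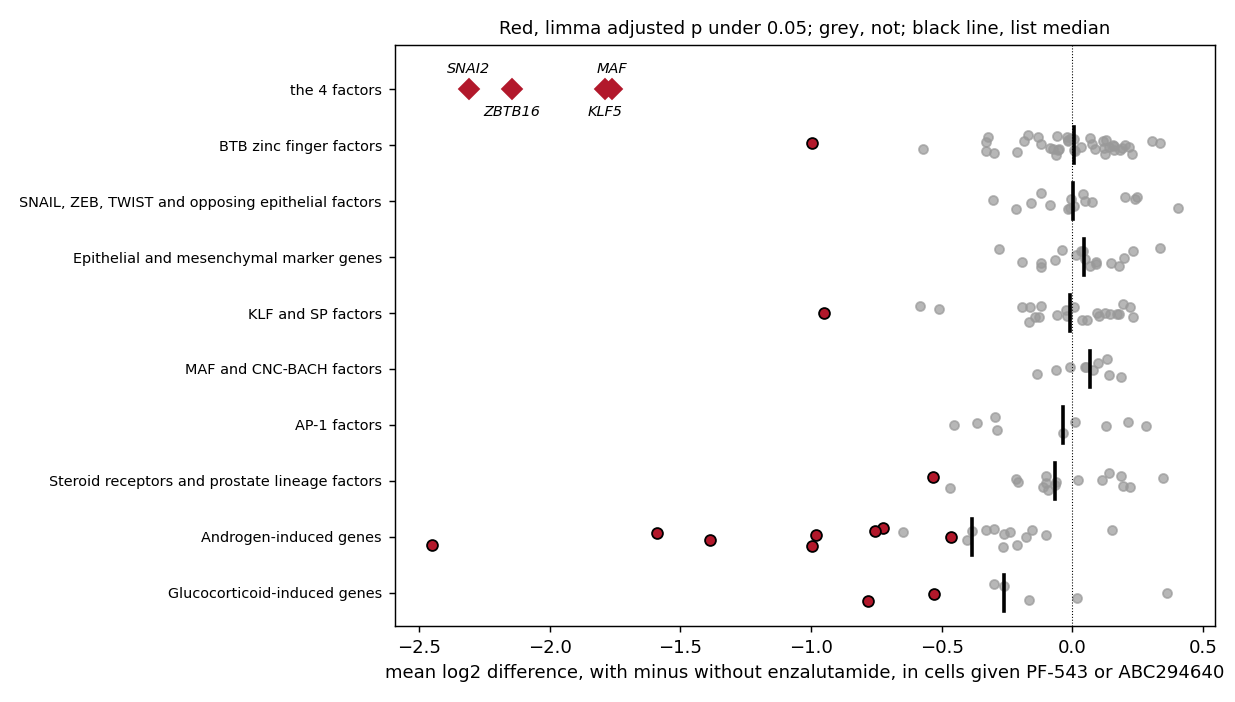
Mean log2 difference with minus without enzalutamide in cells given PF-543 or ABC294640 (horizontal axis) for the 4 factors (diamonds) and for each gene of 9 lists (circles; rows); red marks limma adjusted p under 0.05 and black lines mark list medians. The factors lie between -2.31 and -1.76, ZBTB10 and KLF7 stand alone in red in their families, and androgen-induced genes are the list with most red circles (8 of 21).

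Lists of hormone-regulated genes gave the setting of these falls. Of 21 measured androgen-induced genes 8 fell and 0 rose (median log2 -0.39, to -2.45 for C1orf116), a list to which ZBTB10 also belongs. Of 7 measured glucocorticoid-induced genes 2 fell, the EGFR inhibitor ERRFI1 (log2 -0.53, adjusted p = 0.0157) and the NF-kB inhibitor NFKBIA (log2 -0.78, limma adjusted p = 0.00248), and 0 rose (median log2 -0.26). Of 17 measured steroid receptors and prostate lineage factors 1 fell, the ETS factor SPDEF (log2 -0.54, SE 0.08, limma adjusted p = 0.00884), and 16 did not pass (median log2 -0.07).

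The genes whose levels followed each member most closely over the 15 arrays were found by Pearson correlation among 13266 other genes in the upper 75% by mean. For ZBTB16 they were CDC42EP3 (r = 0.98), PMEPA1 (0.98) and C1orf116 (0.97). For SNAI2 they were TBRG1 (0.95), KLF7 (0.94) and MAF (0.94), and for MAF they were ELL2 (0.96), KLF7 (0.95) and PIAS1 (0.94). For KLF5 they were RHOU (0.97), SEMA6D (0.97) and C1orf116 (0.95). The arrays fall into 2 clusters, with and without enzalutamide, and the DMSO and enzalutamide arrays that chose the members are among them, so r mostly measures that gap. Within the clusters r between pairs of members ran from -0.17 to 0.55 over the 8 arrays with enzalutamide, and from -0.06 (ZBTB16 and KLF5) to 0.79 (SNAI2 and MAF) over the 7 without. After each group's mean was removed, r over 14 arrays ran from 0.13 (ZBTB16 and KLF5) to 0.54 (KLF5 and MAF) and was 0.31 for SNAI2 and MAF.

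The differences of these genes are given as a description, with no test, since the correlation that picked them ran over the arrays compared here. In the mean effect on top of an inhibitor, RHOU, a small GTPase, was at log2 -1.995, CDC42EP3, a Cdc42 effector, at -1.91 and SEMA6D, a semaphorin, at -1.29. The elongation factor ELL2 was at -0.76, PIAS1, a SUMO ligase, at -0.49 and TBRG1 at -0.46. TBRG1 went from a mean of log2 13.35 on the 7 arrays without enzalutamide to 12.92 on the 8 with it, and PIAS1 from 13.31 to 12.88.

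**Figure D4:**
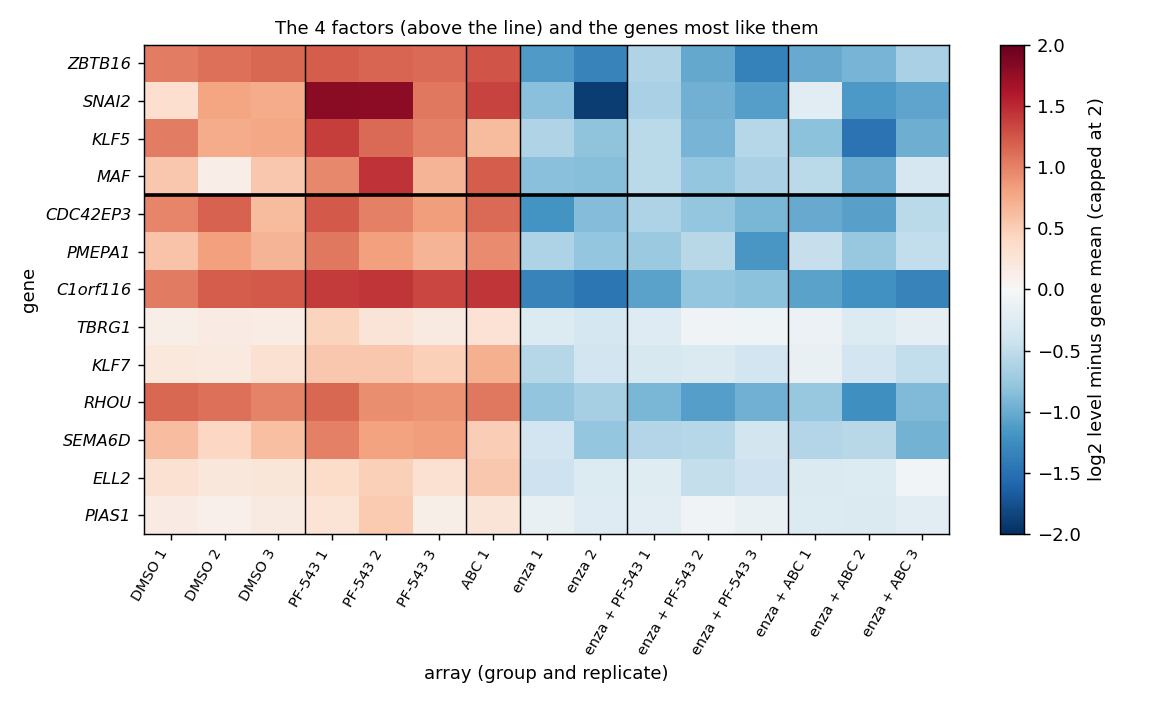
Log2 level minus each gene's mean over 15 arrays (colour, capped at 2) for the 4 factors (rows above the thick line) and the 9 other genes most like them, by array (columns, grouped by treatment). All 13 rows turn from red to blue at the first enzalutamide array, with paler colours for TBRG1, ELL2 and PIAS1.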

How the data were processed

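The authors deposited log2 expression per probe set for 15 arrays, made with RMA and Transcriptome Analysis Console 4.02 per the submitters' processing notes, which name no RMA variant or annotation. RMA normalizes between arrays, which hides any shift common to most genes. Array medians were 6.71 to 6.76, and 0 pairs of arrays were identical. Of 21448 probe sets, 17709 had 1 gene symbol, 0 had several and 3739 were unnamed here; the highest-mean probe set per gene left 17687 genes. The number of arrays limits the precision.

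Group means were estimated from all 15 arrays by limma 3.58.1 in R 4.3.3 (9 residual and 3.82 prior degrees of freedom), with Benjamini-Hochberg adjustment over all genes at 0.05. The 6 tested contrasts use neither DMSO nor enzalutamide-alone arrays in their difference; 7 others are described. An SE or interval uses the moderated spread. Members, lists (9, with 177 genes, 162 measured) and tests were chosen with earlier results of these data known. Named genes were the members, the 3 most correlated genes of each, the up to 3 largest called changes per list in each direction, and near relatives; some genes that this rule names are not reported here.

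On simulated data with 200 changed genes of 17687, enzalutamide added to PF-543 recovered 89% of changes of log2 1 and 100% of changes of log2 2, with 6 false calls. Added to ABC294640 it recovered 71% and 98%, with 8 false calls, and the mean effect 99% and 100%, with 14. The simulated noise was normal, independent between genes and drawn from the moderated spread, with no inhibitor or DMSO differences. These shares are therefore not the power on the real arrays. Alternatives were 3 other normalizations, a filter on dim genes, all probe sets, another prior, array weights, fewer arrays, the replicate number as a block and each array left out. Promoter windows came from RefSeq's GRCh38.p14 table; the files name no build for the probe sets, so no gene coordinates are given. Figures used matplotlib 3.10.9 in Python 3.11.15.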

Additional observations from a re-analysis of the deposited data

How the results depend on the processing

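Of 1200 member results under alternatives, 1179 counted as the same. These were calls kept in the same direction, results that stayed uncalled, described differences that moved by less than 1 SD, and little-changed counts of members called. Leaving out an array outside a described comparison cannot move its difference, so some of the 1179 were fixed in advance. Enzalutamide added to PF-543, and the mean effect on top of an inhibitor, called all 4 members under every alternative run. For enzalutamide added to ABC294640, the fit on its 4 arrays alone called 0 members (adjusted p = 0.278 for ZBTB16 at log2 -2.13, 0.632 for KLF5 at -1.73 and 0.551 for MAF at -1.84), and the fit on 10 arrays called 1 (KLF5 at -1.73, adjusted p = 0.0977, and MAF at -1.84, adjusted p = 0.113, lost). A robust and trended prior called SNAI2 there too (log2 -2.16, adjusted p = 0.00247). Leaving out 1 array moved MAF there between log2 -1.98 and -1.66. It moved SNAI2 in enzalutamide with PF-543 against enzalutamide between -0.0667 and 1.003. These ends came without enzalutamide replicate 2 (SNAI2 at log2 4.05) and without enzalutamide replicate 1 (5.12). The cause of the changed calls was not tested, and some of those fits held fewer arrays.

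With the replicate block all 4 members kept their call for enzalutamide added to PF-543 (ZBTB16 at log2 -2.16, adjusted p = 0.000188; MAF at -1.68, adjusted p = 0.00703), and the genes called were 40 in place of 55. The block took PF-543 against ABC294640 with enzalutamide from 17 genes to 4. No pairing by replicate number was seen: 0 of 26 same-numbered pairs had deviations correlated over 0.1 (-0.04 to 0.07). The labels do not say if the numbers pair the arrays, and this does not exclude it.

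Over all alternatives the count of genes called was 17 to 147 in place of 55 for enzalutamide added to PF-543, 0 to 38 in place of 14 for ABC294640, 40 to 176 in place of 68 for their mean, 3 to 28 in place of 17 and 0 to 18 in place of 3 for the inhibitors with and without enzalutamide. Leaving out the ABC294640 array leaves no fit for the comparisons that use it. SNAI2 with enzalutamide was not shown to be above background: no detection calls were used, and the leukocyte markers PTPRC (5.03 to 6.04) and CD14 (5.38 to 6.12) were in a similar or higher range. The leukocyte marker CD3E was higher still (6.23 to 7.10). KLF5 and MAF with enzalutamide lay largely within its range, so they were not shown to be above background either. The ZBTB16 levels of 6.97 and 6.98 lay within it too.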
